A study of Mus musculus with 4 samples.

Results

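The genes described here encode the E proteins (Tcf3, Tcf4 and Tcf12) and their inhibitors, the Id proteins (Id1, Id2, Id3 and Id4). They are 7 of the 19937 genes that a probe set of the array names as its only gene, and they were chosen by gene family, not by their values. Each gene had 1 such probe set among the 34760 of the deposited table, and all 7 gene identifiers matched the RefSeq gene table with the same symbol. The RNA came from bone marrow pro-B cells of C57BL/6 mice, wild type in genotype, sorted as B220+ c-Kit+ cells. The paper gives the gate of pro-B cells as B220low c-Kit+. The RNA was hybridized to 4 Affymetrix Mouse Gene 1.0 ST arrays, replicates 1 to 4. All 4 samples belong to this group, the age and sex of the mice are not in the labels, and arrays of Emu-NKX2-3 transgenic mice were not analysed here. Nothing in the labels ties the replicates to separate mice, so part of the spread between arrays may be technical.

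E proteins are helix-loop-helix transcription factors that bind as dimers to a short DNA element, the E-box. Tcf3 encodes the E2A proteins, which are required for the start of the B lineage and act upstream of Ebf1 and Pax5. Id proteins have the helix-loop-helix but lack the basic region that contacts DNA, so an E protein paired with an Id protein cannot bind its sites. The balance between both families is known to influence whether a lymphoid progenitor enters the B lineage.

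The sort was checked against markers on the same arrays. Of 13 early B-cell markers with a probe set, 12 exceeded background, defined further on, on each array, among them Kit (log2 value 10.72 ± 0.18, SD, n = 4), whose product the gate selects. Of all probe sets, 60.0% exceeded it on each array. Markers that pro-B cells should lack exceeded it as well, with 7 of 7 erythroid and 11 of 11 granulocyte and monocyte genes; each value below is that of the sorted population. In such bulk RNA, fewer cells of a type and less RNA per cell cannot be told apart. Xist, the RNA of the inactive X chromosome, was at 5.48 on the array of replicate 3 and at 13.04 to 13.17 on the others. The value on replicate 3 was below background, so its RNA did not come from the same mice as the others. No pair of arrays shared more than 2 identical values.

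The E-box, the element that E proteins bind, was searched for in the promoters of these genes, and some of them held none. The 250 bases before the transcription start are shown for Id2 and Id3, the genes that varied most between the arrays, and for Tcf3 and Tcf12, E-protein genes (for Tcf12, 1 of 3 listed starts). The sequences are from RefSeq, build GRCm38.p6, written 5′ to 3′ on the gene's strand, at chr12:25096093-25096342 (minus strand) for Id2, chr4:136143572-136143821 (plus) for Id3, chr10:80433636-80433885 (minus) for Tcf3 and chr9:72111820-72112069 (minus) for Tcf12. Capitals mark each match to the E-box, CANNTG, which reads the same on both strands.
Id2: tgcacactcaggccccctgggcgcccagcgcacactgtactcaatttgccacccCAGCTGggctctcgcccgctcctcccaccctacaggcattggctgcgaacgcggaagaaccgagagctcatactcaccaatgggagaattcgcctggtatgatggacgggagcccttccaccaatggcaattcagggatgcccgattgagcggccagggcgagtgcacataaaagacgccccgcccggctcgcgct
Id3: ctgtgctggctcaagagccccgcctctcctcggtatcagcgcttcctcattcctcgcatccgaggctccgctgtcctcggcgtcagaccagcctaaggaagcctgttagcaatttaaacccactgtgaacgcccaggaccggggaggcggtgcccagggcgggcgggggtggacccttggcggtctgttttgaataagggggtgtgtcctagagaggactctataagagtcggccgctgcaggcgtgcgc
Tcf3: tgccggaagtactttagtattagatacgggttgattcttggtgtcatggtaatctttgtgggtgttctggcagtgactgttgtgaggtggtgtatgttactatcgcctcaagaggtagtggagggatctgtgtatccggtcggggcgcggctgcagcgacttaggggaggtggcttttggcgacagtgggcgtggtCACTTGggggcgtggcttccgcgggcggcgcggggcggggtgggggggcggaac
Tcf12: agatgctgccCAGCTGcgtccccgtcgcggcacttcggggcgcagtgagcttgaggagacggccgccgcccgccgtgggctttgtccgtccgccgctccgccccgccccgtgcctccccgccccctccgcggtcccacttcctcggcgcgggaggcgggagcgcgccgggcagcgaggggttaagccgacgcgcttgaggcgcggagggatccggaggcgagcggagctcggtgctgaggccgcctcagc

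The Id2 promoter held 1 E-box, with its first base 196 bases before the start. It has the core CAGCTG, and so does the Tcf12 promoter, at 240 bases before the start. Tcf3 held CACTTG at 54 bases, while these letters were not in the windows of Id3 or Id4. At the other starts of Tcf12 there was 1 further E-box, CAAGTG, 149 bases before the start at chr9:72111202-72111451 (minus strand). The element is frequent. At least 1 CANNTG was found in 66.2% of all 32851 windows of the same length and CAGCTG in 13.0%, against 15 and 2 of 18 windows of the E-protein target genes described further on. The core CAGGTG, searched on both strands as CAGGTG or CACCTG, was found in 17.2% of all windows, in none of the 7 windows of Id2, Id3, Id4, Tcf3 and Tcf12, and in 7 of the 18 windows of target genes. These matches describe the letters only.

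All 7 genes lay above background on every array. The background was read from 1248 probe sets of odorant, vomeronasal and taste receptors, genes taken as silent in lymphocytes. Their 95th percentile on an array is the line, and a gene counts as above background if it passes the line of each array. This line lay at log2 values of 6.53, 6.62, 6.54 and 6.59 on the arrays of replicates 1 to 4. Of all probe sets, 60.0% passed. In a one-sided limma test of the value minus the line, adjusted by Benjamini-Hochberg over all probe sets, all 7 genes passed as well, where 60.2% of all probe sets did. Passing is therefore common on these arrays, and the margin of each gene, that is, the log2 value minus the line, is given as well. A margin tells how far a probe set lies from background. Margins of different probe sets, like their levels, cannot be set against each other.

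The 3 E-protein genes had wide margins. Tcf3 had log2 values of 10.49, 10.35, 10.16 and 10.09 on the arrays of replicates 1 to 4. It was highest on replicate 1 and lowest on replicate 4, and its mean margin was 3.70 ± 0.09 (SE, n = 4; limma adjusted p = 1.95e-08). Tcf12 encodes HEB, an E protein best known from developing T cells. Its log2 values were 11.18, 10.88, 10.99 and 10.87, with a margin of 4.41 ± 0.08 (SE, n = 4; limma adjusted p = 8.02e-09). Tcf12 stood highest on replicate 1, and its other 3 arrays lay within 0.12 of each other on the log2 scale.

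Tcf4 encodes E2-2, the E protein that plasmacytoid dendritic cells depend on. Its log2 values were 10.56, 10.35, 10.38 and 10.31 on the arrays of replicates 1 to 4, with a margin of 3.83 ± 0.07 (SE, n = 4; limma adjusted p = 8.49e-09). Again only replicate 1 stood above the others, which lay within 0.07 of each other. All 8 plasmacytoid dendritic cell markers with a probe set were above background too, including Siglech, a surface lectin of these cells, at 8.89 ± 0.33 (SD, n = 4). Their median shift on the array of replicate 1, the value there minus the mean of the other 3 arrays, was 0.07, while Tcf4 shifted by 0.21; the 0.07 became 0.02 without replicate 2, 0.17 without replicate 3 and 0.13 without replicate 4. On replicate 3 their median shift was -0.05, with 3 higher and 5 lower, and Tcf4 shifted by -0.02. Siglech was among those higher there, at 9.36. The part of plasmacytoid dendritic cells in the Tcf4 signal was not tested.

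Of the Id genes, Id2 lay far above the line, and Id1, Id3 and Id4 lay closer to it. Id2, an Id gene with known roles in natural killer, innate lymphoid and dendritic cells, had log2 values of 11.64, 10.65, 11.14 and 11.12 on the arrays of replicates 1 to 4. It was highest on replicate 1 and lowest on replicate 2, with replicates 3 and 4 close together between them. Its margin was 4.57 ± 0.16 (SE, n = 4; limma adjusted p = 1.62e-07).

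Id1, a gene known to respond to bone morphogenetic proteins (BMPs), had log2 values of 7.89, 7.83, 7.43 and 7.63. It was lowest on replicate 3, and its margin was 1.12 ± 0.09 (SE, n = 4; limma adjusted p = 1.32e-05). Id3, which is induced by antigen-receptor signalling in lymphocytes, had log2 values of 7.70, 6.90, 7.32 and 6.81. Replicates 1 and 3 were high and replicates 2 and 4 low, and the margin of 0.61 ± 0.16 (SE, n = 4; limma adjusted p = 0.00806) ran from 0.22 on replicate 4 to 1.17 on replicate 1. Id4, best known from the nervous system, was nearly flat at 6.82, 6.94, 6.84 and 6.83. Its margin was 0.29 ± 0.06 (SE, n = 4; limma adjusted p = 0.00170), with a 95% confidence interval of 0.15 to 0.42.

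The calls of Id3 and Id4 depended on where the line was set. When the 99th percentile of the silent genes was used instead, which lay at 7.17 to 7.26 and was passed by 48.2% of all probe sets, 5 of the 7 genes remained above it on every array. Id3 passed this line on 2 of 4 arrays and Id4 on 0 of 4, while Id1 and Id2 passed on all 4, as did Tcf3, Tcf4 and Tcf12. Id4 thus lay in the range that receptor genes taken as silent also reach, since 45 of the 1248 silent probe sets were themselves above the 95th percentile line on all 4 arrays.

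**Figure D1:**
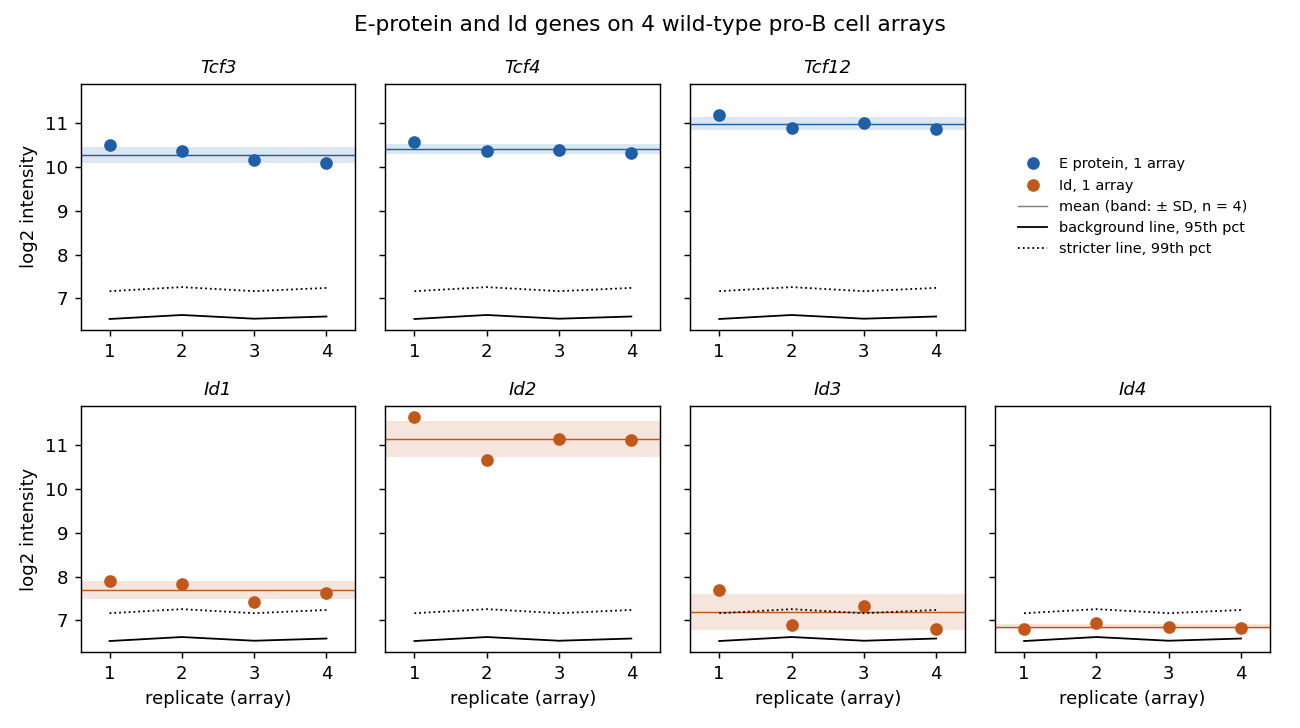
Log2 intensity (vertical axis) of each gene by replicate array (horizontal axis) in wild-type pro-B cells; points are arrays, coloured lines and bands the mean ± SD (n = 4), and black lines the 95th (solid) and 99th percentile (dotted) of silent receptor probe sets. Tcf3, Tcf4, Tcf12 and Id2 lie far above both lines, Id3 passes the dotted line on 2 arrays and Id4 on none; levels of different probe sets cannot be set against each other.

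Id2 and Id3 varied most between the arrays. Their ranges, the highest minus the lowest array, were 0.99 and 0.89 on the log2 scale, which are 1.98-fold and 1.85-fold. They were the only genes of the 7 with a range of at least 0.5, which 18.6% of all 20872 probe sets above background reached. The SD of Id2 was 0.40 and that of Id3 0.41 (n = 4), larger than the SD of 96.8% and 96.9% of these probe sets. Id4 had an SD of 0.06, larger than 10.2% of them.

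Between these lay Id1 with an SD of 0.21 (n = 4; range 0.46), Tcf3 with 0.18 (range 0.40), Tcf12 with 0.14 (range 0.31) and Tcf4 with 0.11 (range 0.25). The median SD was 0.14 over the 3 E-protein genes, 0.31 over the 4 Id genes and 0.13 over all probe sets above background. Several of these spreads rested on 1 array. Without replicate 1 the SD of Tcf4 was 0.04, that of Tcf12 was 0.06 and that of Id3 was 0.27, and the range of Id2 was 0.49 against 0.51 for Id3. Without replicate 3 the SD of Id1 was 0.14, and without replicate 2 that of Id4 was 0.01.

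**Figure D2:**
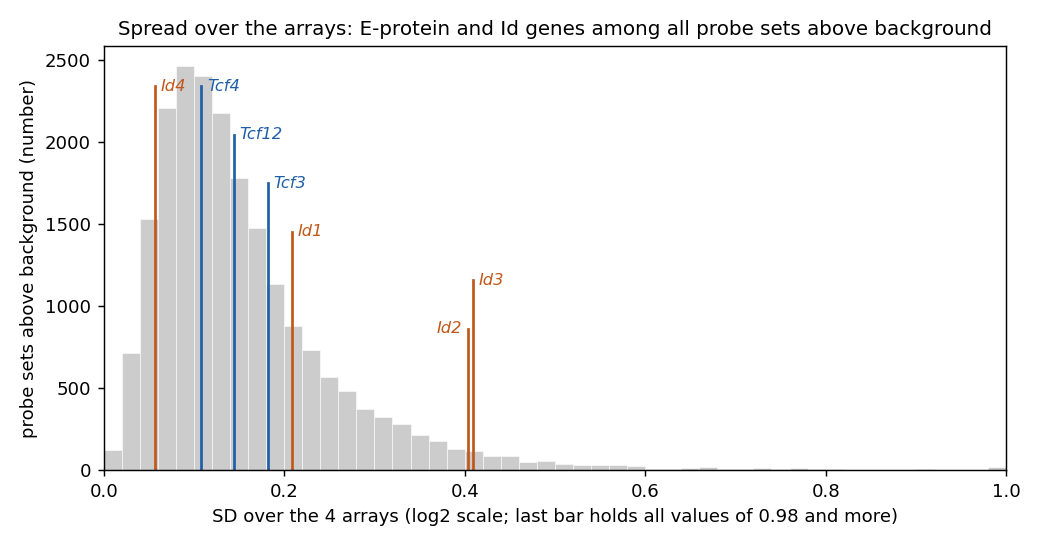
Number of probe sets above background (vertical axis) by their SD over the 4 arrays on the log2 scale (horizontal axis, bins of 0.02), with the E-protein genes in blue and the Id genes in orange. Id2 (0.40) and Id3 (0.41) lie in the right tail, Id4 (0.06) on the left side, and the E-protein genes (0.11 to 0.18) near the bulk; the height of the coloured lines has no meaning.

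Of the 7 genes, 6 had their highest value on the array of replicate 1, where 32.9% of all probe sets above background were highest; the exception was Id4. On that array the shifts from the mean of the others were 0.29 for Tcf3, 0.21 for Tcf4 and 0.27 for Tcf12. They were 0.26 for Id1, 0.67 for Id2, 0.69 for Id3 and -0.06 for Id4. The array of replicate 4 held the lowest value of 4 genes, Tcf3, Tcf4, Tcf12 and Id3, against 26.6% of all probe sets. Both counts were looked at after the values were seen, and both held with quantile normalization, median centring and cyclic loess.

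With all 4 arrays, the mean shifts of both families had the same sign on every array. Single genes did not: on replicate 2, 1 of the 3 E-protein genes and 2 of the 4 Id genes were higher. On the array of replicate 1 the mean shift was 0.26 for the E-protein genes and 0.39 for the Id genes, a difference (Id minus E) of 0.13. On that of replicate 2 it was -0.03 and -0.18, a difference of -0.15, to which Id2 with a shift of -0.65 and Id3 with one of -0.37 contributed. Without replicate 1 the shifts on replicate 2 were 0.23 for Tcf3, 0.002 for Tcf4 and -0.04 for Tcf12. Those of Id1, Id2, Id3 and Id4 were 0.30, -0.48, -0.16 and 0.11. That both family means had the same sign on replicate 2 therefore depended on the array of replicate 1. Among single genes only Tcf4 changed its sign there, from -0.07 to 0.002. Without replicate 4 the shift of Id3 on replicate 2 was -0.61. On replicates 3 and 4 the difference was 0.01. These are single arrays of 1 group, so no test of the differences is possible.

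Markers of other cell populations differed between the same arrays. All 7 erythroid markers were lower in replicate 1 (median shift -1.31), and 11 of 12 early B-cell markers were higher there (0.67). The exception was Kit, whose product the gate selects, at 10.46 there against 10.80 to 10.83 on the other arrays (shift -0.36). On replicate 2, where Id2 was lowest, 10 of 11 granulocyte and monocyte markers were lower than on the other arrays (median shift -0.57). On replicate 4 the median shift was -0.56 for the early B-cell markers, and also for those of pre-B and immature B cells. Without replicate 1, where the medians of both lists were high (0.67 and 0.45), the medians on replicate 4 became -0.29 and -0.46. In the second list 4 markers were higher on replicate 1, while Ighm (shift -0.71) and Spn (-0.11) were lower. The mean log2 value of the erythroid list ran from 8.64 on replicate 1 to 10.19 on replicate 2, and that of the granulocyte and monocyte list from 11.79 on replicate 2 to 12.36 on replicate 3. No marker of either list was at or below the line. The part of these cells in the shifts of the E-protein and Id genes was not tested. The 7 housekeeping genes had median shifts of -0.03 to 0.04 on the arrays.

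**Figure D3:**
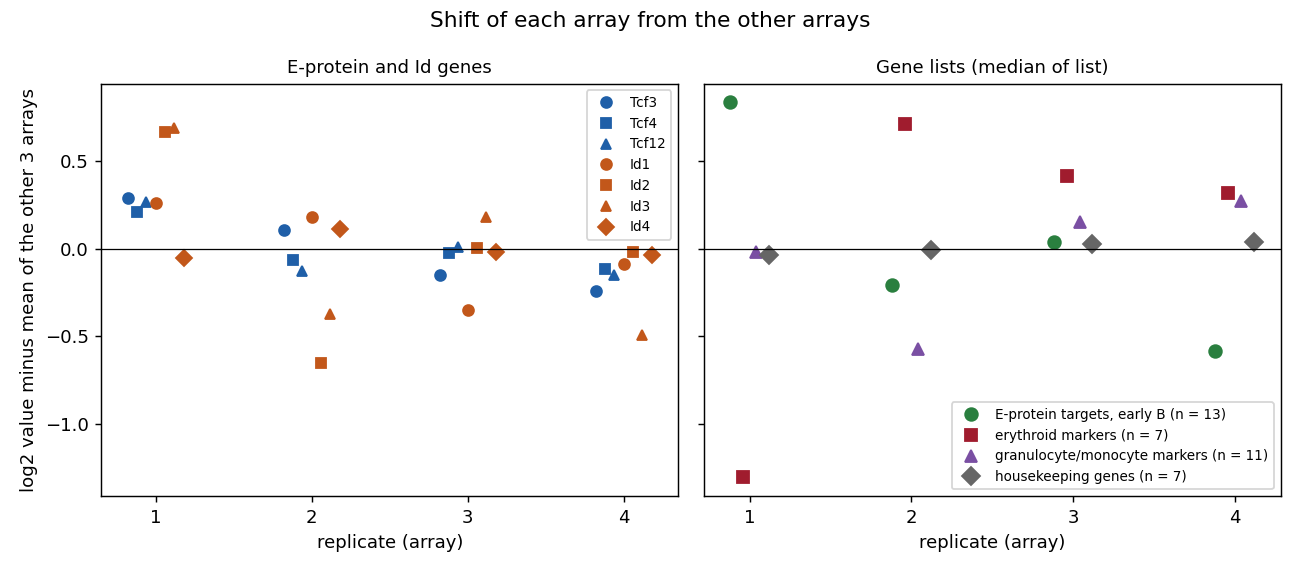
Log2 value on each array minus the mean of the other 3 arrays (vertical axis) by replicate (horizontal axis), for the E-protein and Id genes (left, 1 point per gene) and as the median of 4 gene lists (right). On replicate 1 all genes but Id4 lie above 0, the E-protein targets at 0.83 and the erythroid markers at -1.31.

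Genes listed here as E-protein targets in early B cells were also mostly highest on replicate 1 and lowest on replicate 4, with larger shifts. Of 16 such target genes, 14 had a probe set of their own, and 13 of them were above background; Rag2, a subunit of the recombinase, was above it on 3 arrays. Replicate 1 held 12 of 13 above the mean of the other arrays (median shift 0.83). Replicate 4 held 11 of 13 below it (-0.58), a median that was -0.36 without replicate 1. Of the 13, 11 were highest on replicate 1 and 10 lowest on replicate 4. Among all probe sets above background these shares were 32.9% and 26.6%. As 9 of the 14 are also in the early B-cell marker list, whose higher level on replicate 1 was known beforehand, this is not independent evidence. The 5 targets outside that list (Blnk, Foxo1, Gfi1, Notch1 and Pou2af1) had a median shift of 0.61 on replicate 1, with 4 of 5 higher. On replicate 4 it was -0.52, with 4 of 5 lower. Gfi1 went the other way on both arrays, with -0.21 and 0.10. These 5 were also listed as genes of early B cells, so they are not independent evidence either.

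Ebf1, the factor that together with E2A starts the B-cell programme, had log2 values of 12.03, 10.94, 11.13 and 10.64 on the arrays of replicates 1 to 4. Foxo1, which acts with both in early B cells, had values of 10.22, 9.48, 9.62 and 9.05. Rag1, the partner of Rag2, had the largest range of the list, with 10.15, 8.25, 8.89 and 7.74. In all 3 genes replicate 1 was highest and replicate 4 lowest, as for Tcf3, whose own range was 0.40 against 1.39, 1.17 and 2.41. Igll1, of the surrogate light chain, was highest on replicate 1 (12.20) and lowest on replicate 2 (10.66). Those not highest on replicate 1 were Dntt, the terminal transferase, which was highest on replicate 3 (9.07) and lowest on replicate 2 (7.32), and Gfi1, a repressor, with 9.06 to 9.40 and its lowest value on replicate 1. Over the 13 genes the median range was 1.17. A range of at least 0.5 was reached by 12, and by 18.6% of all probe sets above background.

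E proteins pair with tissue-restricted helix-loop-helix factors outside the B lineage. Of 7 such partners, 4 were above background (60.0% of all probe sets were): Tal1, Lyl1, Msc and Bhlha15. Tal1, the partner in erythroid and stem cells, had log2 values of 7.88, 8.64, 8.20 and 8.20, lowest on replicate 1 and highest on replicate 2. Lyl1, its close relative, had values of 11.03, 10.93, 11.01 and 10.80, with a range of 0.23. The median shift of the 4 genes on replicate 1 was -0.07, with 3 of 4 lower. Tal2 and Nhlh1 were below the line on all 4 arrays, and Ascl2 was above it on 1.

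Of 9 cofactors, 8 were above background, against 60.0% of all probe sets. Lmo2, an adaptor that links Tal1 to its complexes, was lowest on replicate 1, as Tal1 was, with values of 11.11, 11.57, 11.46 and 11.45. On replicate 1, 6 of the 8 cofactors were higher (median shift 0.21). Replicate 4 was lowest for 7 of the 8, and for 26.6% of all probe sets above background. Ep300 and Crebbp, acetyltransferases that E proteins recruit, had shifts of 0.25 and 0.30 on replicate 1. Cbfa2t3, a corepressor, has 2 probe sets, which had shifts of 0.51 and 0.33 there. Ldb1, which binds Lmo2, had a range of 0.15, and Runx1t1 was above the line on 1 array.

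All 11 regulators of Id genes were above background, 8 of them also with the stricter line, against 60.0% and 48.2% of all probe sets. Their median shift on replicate 1 was 0.21, with 8 of 11 higher. The BMP receptor genes Bmpr1a, Bmpr2 and Acvr1 were all highest on replicate 1 and lowest on replicate 3, as was Id1. Bmpr1a had log2 values of 7.71, 7.44, 6.98 and 7.54, a range of 0.74 against 0.46 for Id1. Smad1, a transducer of these receptors, was instead highest on replicate 4, at 7.98 against 7.65 to 7.73 on the others. The array of replicate 3 is also the one with low Xist.

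Egr genes, immediate early genes that link antigen-receptor signals to Id3, gave a mixed picture. Egr1 had values of 7.45, 7.15, 7.10 and 6.78, highest on replicate 1 and lowest on replicate 4, as Id3 was. Egr2 and Egr3 were highest on replicate 4, at 6.90 and 7.77, with ranges of 0.26 and 0.17. Tgfbr2, a receptor of TGF-beta, was also lowest on replicate 4, at 9.02 against 9.42 to 9.75 on the others.

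The 5 genes of E and Id protein turnover were above background with both lines, which 60.0% and 48.2% of all probe sets passed. Usp1, a deubiquitinase of Id proteins, had the reverse order of Tcf3, with values of 10.33, 10.37, 10.44 and 10.58. Asb2, a ubiquitin ligase subunit that targets E2A, had values of 8.05, 7.99, 7.63 and 7.52, the same order of arrays as Tcf3, with a range of 0.53. Skp2, Stub1 and Fzr1 had ranges of 0.13 to 0.23.

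**Figure D4:**
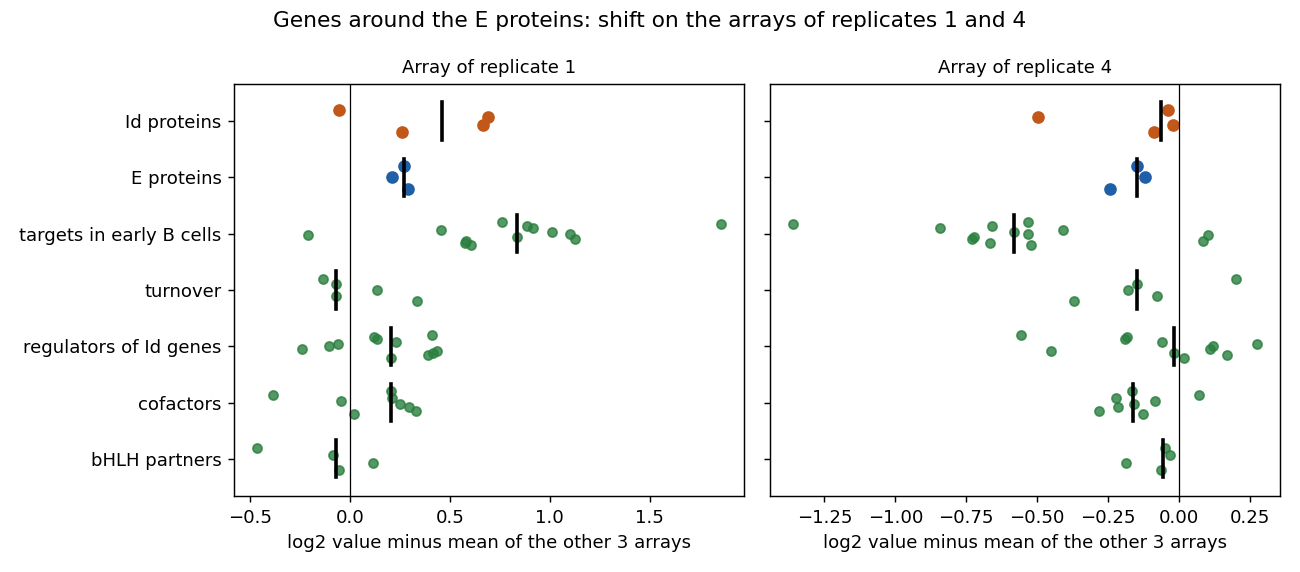
Log2 value on the array of replicate 1 (left) or replicate 4 (right) minus the mean of the other 3 arrays (horizontal axes), for genes above background in 7 groups (vertical axis); points are genes and black bars are medians. The targets in early B cells lie furthest from 0 (medians 0.83 and -0.58), and the partners have medians of -0.07 and -0.06.

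For Id2 and Id3 the probe sets with the most similar pattern over the arrays were listed by the root mean square difference of values centred on their mean, among 13746 probe sets of other genes above background. The nearest to Id2 were those of Srsf3, a splicing factor (difference 0.03), Plekhg1 (0.04) and Tlr8, a receptor for RNA (0.08). Only 8 probe sets lay within 0.1 of Id2. Srsf3 was highest on replicate 1 (log2 value 8.93) and lowest on replicate 2, with 8.50 and 8.48 on replicates 3 and 4, the order of Id2.

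Nearest to Id3 were the probe sets of Nfkbia, the inhibitor of NF-kB (difference 0.03), Blnk, the adaptor of the pre-B-cell receptor (0.04), and Padi2 (0.04), and 42 lay within 0.1. Nfkbia had values of 10.48, 9.63, 10.03 and 9.53, and Blnk 10.68, 9.98, 10.40 and 9.83, so that replicates 1 and 3 were high in both, as in Id3. With 4 arrays many genes share an order by their number alone, and this likeness is a description.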

How the data were processed

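RNA of 4 samples of 1 group was measured, 1 array each. Per the methods, the authors corrected and normalized the arrays by RMA in R/Bioconductor, and the deposited table holds log2 intensity for each probe set. Which arrays RMA was run on, and how low probe sets were filtered, is not given in the sources. Every column bears a sample's name, and 0 were left over. No genome build is named for the values, so coordinates are those of the RefSeq promoter table.

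A probe set took its gene from the platform annotation if that lists 1 symbol (21640 of 34760). A listed gene with several probe sets was given by that with the highest mean. Margins were tested with limma 3.58.1 (R 4.3.3; lmFit, eBayes, one-sided), adjusted over all probe sets at 0.05; shifts, ranges and SDs were computed in Python 3.11.15 with pandas 2.3.3. The number of arrays limits the precision. Tested on simulated data of 34760 probe sets, the margin test passed 88 of 100 with a true margin of 1. It passed 53 of 100 with 0.5 and 2 of 17270 with 0. The simulation placed only these sets of 100 above the line, whereas 60.2% of the real probe sets passed the test. Its rates therefore do not carry over to the real table.

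The 18 lists, the alternatives and the rule for named genes (all E-protein and Id genes, every gene of the pathway lists, and the 3 nearest probe sets of each E-protein or Id gene with a range of at least 0.5) were chosen with earlier results of these data known. Single markers that the text names were picked once their values had been seen. Alternatives were lines at the 99th or 90th percentile or from 213 vomeronasal and taste receptor probe sets alone, a line at the array median, passing on 3 of 4 arrays, the limma test, quantile normalization, median centring, cyclic loess, other summaries of probe sets, and leaving out each array. Promoter windows were used for 5 of the 7 genes, and none for Id1 or Tcf4. Any window of these 7 genes on chromosome 18 was left out.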

Additional observations from a re-analysis of the deposited data

Results flagged for a closer look

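Of 60 probe sets tested for 1 array far from the others (the E-protein and Id genes, the genes of the pathway lists and the nearest probe sets), 1 stood apart, where chance gives about 1 in 20, or 3. It was that of Bhlha15, a helix-loop-helix factor of secretory cells, with a log2 value of 7.83 on the array of replicate 2 against a mean of 7.68 on the others. None of the 7 E-protein and Id genes (0) stood apart by this measure.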

How the results depend on the processing

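No paired analysis was possible because there is only 1 group of samples. Of the E-protein and Id genes, Id3 and Id4 changed sides. Set at the silent genes' 99th percentile, the line gave a mean margin of -0.024 for Id3 and -0.35 for Id4; set at the array median, it gave -0.14 and -0.47; both lines lay higher than the 95th percentile on these arrays, and 5 of 7 genes passed each on all arrays. Under the other alternatives the count was 7. The number of E-protein and Id genes with a range of at least 0.5 was 1 without replicate 1, and 1 to 2 when each replicate was left out. The difference between Id and E-protein shifts moved by less than its SD over the arrays under every alternative. That SD is a coarse measure here. The difference ran from 0.09 to 0.19 on replicate 1 and from -0.17 to -0.06 on replicate 2. On replicates 3 and 4 its sign changed, with -0.05 to 0.06 and -0.05 to 0.09. Pathway genes above background numbered 41, and 34 to 43 under the alternatives; for markers it was 73, and 63 to 77. The median shift of the erythroid markers turned to -0.11 on replicate 3 (up to 0.65 with another array left out) and -0.13 on replicate 4 (up to 0.61) without replicate 1, because the mean of the other arrays no longer held that low array. With the stricter line the T and NK cell markers above background fell from 5 to 2 and the stromal ones from 4 to 2; with the array median they were 1 and 2. By largest absolute difference, 2 of the 3 probe sets nearest to Id2 and 3 of 3 nearest to Id3 were the same. The counts of highest and lowest arrays were added after the values were seen; 4 genes were lowest on replicate 4, and 5 without any 1 of the other arrays. Signal over background limits what can be said of Id3 and Id4.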

Other observations

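Id and E-protein genes are also used by cells that these sorts could hold, and the remaining marker lists were read on the same arrays. Background was exceeded on each array by 60.0% of all probe sets. Of megakaryocyte markers 4 of 4 with a probe set were above background, with median shifts of 0.21, 0.22, -0.04 and -0.38 on the arrays of replicates 1 to 4. Without replicate 4 the first 3 of these were 0.11, 0.10 and -0.19; without replicate 1 that on replicate 2 was 0.33, and without replicate 2 that on replicate 3 was 0.11. Of mast cell and basophil markers 4 of 6 passed; Ms4a2 and Fcer1a did not. Their shifts were 0.15, -0.33, 0.26 and -0.22, lowest on replicate 2, as for Id2. The shift on replicate 4 rested on single arrays, with -0.0035 without replicate 3, -0.12 without replicate 1 and -0.35 without replicate 2, and that on replicate 1 was 0.27 without replicate 3.

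Of T and NK cell markers 5 of 6 were above background, with a median shift of -0.28 on replicate 1, where Id2 was highest (-0.18 without replicate 2). The list was not uniform. Cd3e, Cd3g and Cd8a were lower on that array. So was Nkg7, a gene of NK cells too, with log2 values of 12.64, 12.89, 12.93 and 12.99. Klrb1c, a receptor of NK cells, had log2 values of 8.31, 7.05, 7.61 and 7.13, highest on replicate 1 and lowest on replicate 2, as Id2 was. Gzma, a granule protease of NK and cytotoxic T cells that passed the line on 2 arrays, had 7.61, 6.29, 6.97 and 6.47, with the same highest and lowest arrays. The part of NK cells in the Id2 signal was not tested. Of stem and progenitor markers 5 of 6 passed, with shifts of -0.21 to 0.16. The 4 stromal and endothelial markers above background, of 6, had shifts of -0.05 to 0.00. Among pre-B and immature B-cell markers all 6 passed, and Il2ra, which encodes CD25, had log2 values of 9.61, 9.17, 9.14 and 8.50.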
